A study of Mus musculus with 33 samples.

Results

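The genes described here are 9 of the 38355 genes in the count files: the BET proteins Brd2, Brd3 and Brdt, the kinase Cdk9 with its cyclins Ccnt1 and Ccnt2, the 7SK components Hexim1 and Larp7, and Myc. They were chosen by name for their place in the pathway that JQ1 acts on, with earlier results of these data known. BET proteins bind acetylated lysines on histones through paired bromodomains, and JQ1 occupies the acetyl-lysine pocket of those bromodomains. On chromatin they recruit P-TEFb, the complex of Cdk9 with a cyclin T that phosphorylates RNA polymerase II and releases it from pausing near promoters. Hexim1 holds P-TEFb inactive on the 7SK RNA, which Larp7 binds and stabilises, and in many dividing cell types BET inhibitors lower Myc and raise Hexim1.

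RNA was sequenced from the hippocampal CA1 region of mice in 2 experiments. In the first, APP/PS1-21 mice aged 8 to 10 months (APP mice), which carry mutant human amyloid precursor protein and presenilin transgenes under the neuronal Thy1 promoter, received intraperitoneal JQ1 at 50 mg/kg (n = 6) or vehicle (n = 6) for 10 days. They were compared with vehicle-treated wild-type (WT) mice of the same age, of which the labels list 5 and 4 had counts. The strain field of those WT samples names the APP line, while their titles call them WT, and the titles were followed. In the second, WT C57B/6JRj mice aged 3 months received JQ1 at the same dose (n = 8) or vehicle (n = 8) for 13 days. According to the study's methods the APP mice were females and the young mice males, so age, sex, genotype, treatment length and processing all differ between the experiments and cannot be told apart. The methods also state that mice for sequencing had been through the water maze. They were killed the day after its probe test, following 10 JQ1 injections in APP mice and 13 in young mice.

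The aged samples had between 14605459 and 25339482 reads on genes, and 4 aged libraries (JQ1-treated APP replicates 3 and 4, vehicle-treated APP replicate 4 and vehicle-treated WT replicate 1) stood apart on the first principal component, which held 30.6% of the variance. Values without these libraries stand beside many of the results below. The CA1 marker list (5 of 5 genes found) summed to between 4036 and 6806 CPM in the aged samples, against 78.2 to 172 CPM for markers of CA3 and dentate gyrus. Most of the CA1 sum was Camk2a alone, at 3512 to 5836 CPM, and the other CA1 markers ranged from 49.6 to 350 CPM each. The contrast of the 2 sums thus rests mostly on 1 gene and does not measure how pure the dissection was. No marker of either list was at 0 throughout a group. CPM are counts scaled to a common library size, with TMM factors. The summed astrocyte markers (4 of 4 found) ranged from 1061 to 1092 CPM in WT mice and from 1221 to 6226 CPM in APP mice, and the microglia markers (5 of 5 found) from 195 to 227 CPM and from 209 to 553 CPM. Endothelial and mural markers summed to 121 to 133 CPM in WT mice, 134 to 169 CPM in APP mice with vehicle and 126 to 177 CPM with JQ1. Choroid plexus markers reached 3168 CPM in 1 WT mouse, where the group median was 41.1 CPM. The part of these marker shifts in the values below was not tested, and in bulk tissue fewer cells of a type and less RNA per cell cannot be told apart.

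On build mm10, with coordinates from GENCODE, Brd2 lies at chr17:34112023-34122634 and overlaps H2-DMa, Brd3 at chr2:27445579-27507662 and Brdt at chr5:107331159-107387058. Cdk9 lies at chr2:32705784-32713076, Ccnt1 at chr15:98538689-98570923 and Ccnt2 at chr1:127774164-127808061. Hexim1 lies at chr11:103116231-103119725, Larp7 at chr3:127536714-127553349, where it overlaps a cluster of microRNA genes, and Myc at chr15:61985391-61990374. Reads in overlaps with another gene cannot be told apart without the strand of the read.

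The upstream sequences of Hexim1 and Brdt are shown because Hexim1 is the member most used as a readout of BET inhibition and Brdt is the member known for expression in testis and yet was read in every aged CA1 sample. Both are RefSeq sequences of build GRCm38.p6, plus strand, ending 1 base before the start of the gene in the GENCODE annotation. Capitals mark the E-box CACGTG bound by MYC/MAX dimers, the GC box GGGCGG, the CCAAT box and the TATA-like run TATATAA, each searched on both strands. The Hexim1 stretch is chr11:103116075-103116230 and the Brdt stretch chr5:107330944-107331158.
Hexim1: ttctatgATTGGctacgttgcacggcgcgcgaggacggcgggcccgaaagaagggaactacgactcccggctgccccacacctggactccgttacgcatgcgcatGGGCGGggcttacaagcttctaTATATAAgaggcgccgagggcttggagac
Brdt: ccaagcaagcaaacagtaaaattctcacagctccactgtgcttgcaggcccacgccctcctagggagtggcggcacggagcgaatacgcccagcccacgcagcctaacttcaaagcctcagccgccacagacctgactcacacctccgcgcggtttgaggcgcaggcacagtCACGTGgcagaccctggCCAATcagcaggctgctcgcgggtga
The Hexim1 stretch held the TATA-like run 29 bases, a GC box 51 bases and a CCAAT box on the other strand 149 bases before its end. The Brdt stretch held an E-box 43 bases and a CCAAT box 26 bases before its end. In the reference the 250-base promoters of these genes end further downstream, at chr11:103116324 for Hexim1 and chr5:107331193 for Brdt, so these distances hold for the GENCODE starts only. Among 32851 promoters in the reference, TATATAA was present in the 250 bases upstream of 3.04%, CACGTG in 6.02%, GGGCGG in 32.7% and CCAAT in 33.8%. Of the 8 members with a promoter in that table, Hexim1 had the TATA-like run and Brdt the E-box, and no other member had either. In the Ccnt2 promoter a CCAAT box and a GC box overlapped.

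Per kilobase of exon, Brd2 was the most abundant member in aged CA1 and Myc the least. Over the 16 aged mice, Brd2 averaged 26.7 ± 1.24 CPM per kb (SD, n = 16), above 88.6% of the genes tested, and Myc averaged 2.79 ± 0.619 CPM per kb (SD, n = 16), above 39.5%. Between them came Hexim1 at 19.6, Cdk9 at 19.4, Ccnt2 at 9.98, Brd3 at 9.44, Larp7 at 6.40, Brdt at 5.92 and Ccnt1 at 5.48 CPM per kb. Brd2 was higher than Hexim1 in every mouse without overlap, and the same held for Cdk9 over Ccnt2, Brd3 over Larp7 and Ccnt1 over Myc. Hexim1 and Cdk9 overlapped, as did Ccnt2 and Brd3, Larp7 and Brdt, and Brdt and Ccnt1. In young vehicle-treated mice, where values are FPKM (fragments scaled to transcript length and library size), Brd2 was again highest with 76.1 FPKM and Myc lowest with 2.38 FPKM.

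In the FPKM files the Cdk9 and Brdt loci were joined to other genes, so their FPKM are not levels of the single gene. The Cdk9 locus also holds Mir2861 and Mir3960, and Brdt appears in 2 loci, each joined to Ephx4, an epoxide hydrolase gene that is its downstream neighbour on the same strand. The higher of these loci averaged 52.6 FPKM in young vehicle-treated mice and the other 3.95 FPKM. In the count files Brdt had its own values, between 455 and 809 reads per aged sample, and Ephx4 had 771 to 1433. Whether the Brdt reads come from transcripts that start at Brdt was not tested.

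No member passed the threshold of an adjusted p under 0.05 for JQ1 against vehicle in APP mice, where 1.08% of 16962 genes did. At an unadjusted p under 0.05, 3 of the 9 members passed, against 17.6% of all genes. The median log2 fold change of the members was -0.031, beside -0.0010 for all genes tested, and their median absolute change was 0.14, beside 0.16. The question here was whether the genes of the pathway that JQ1 targets changed in level during treatment of APP mice.

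**Figure D1:**
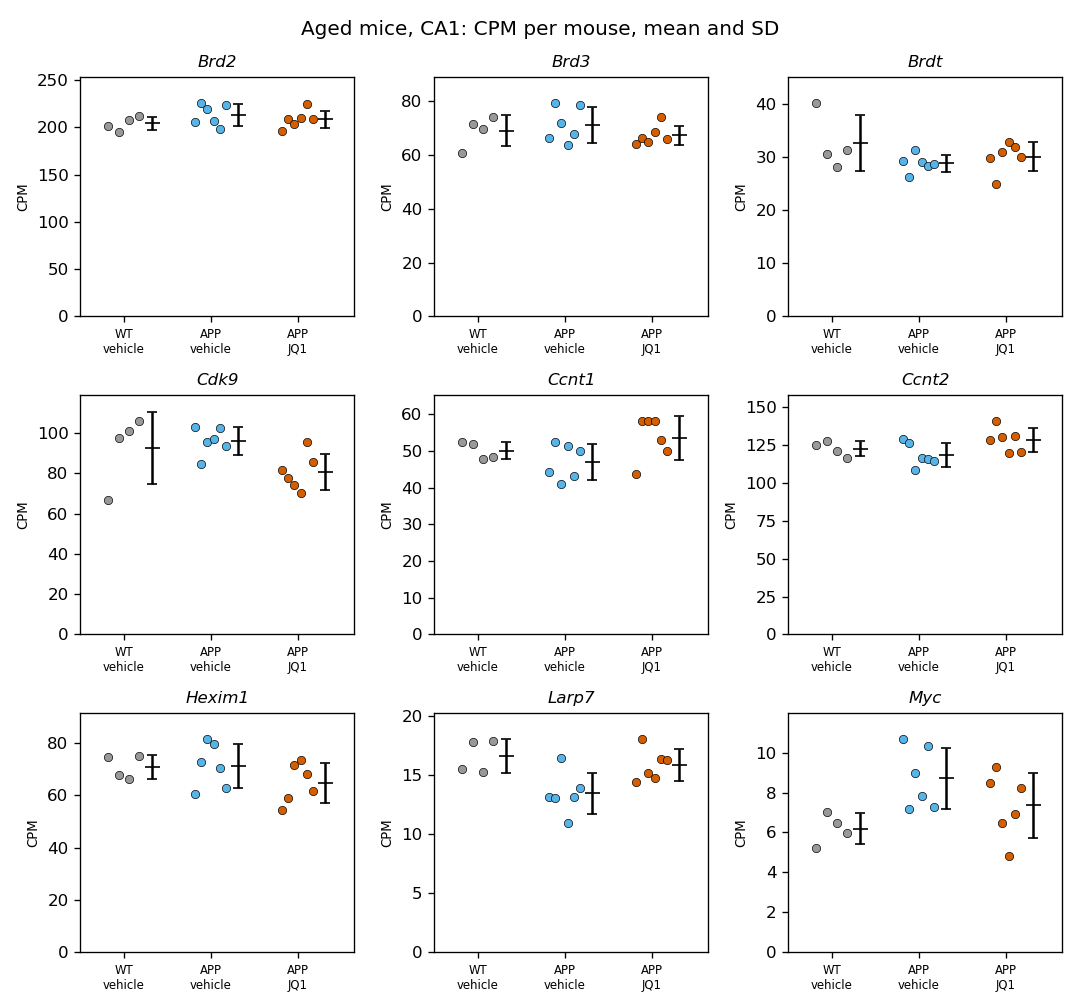
CPM (TMM-scaled) of each member in aged CA1, 1 panel per gene with the axis from 0, points for single mice, and the mean with SD beside them; groups are WT vehicle (n = 4), APP vehicle (n = 6) and APP JQ1 (n = 6). For Myc all 6 vehicle-treated APP mice lie above the 4 WT mice, and the other members overlap between groups.

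Among the BET proteins, Brd2 ranged from 196 to 224 CPM with a median of 209 in JQ1-treated APP mice and from 198 to 226 CPM with a median of 213 in vehicle-treated APP mice. The groups overlapped almost fully. The log2 difference was -0.031 (95% interval -0.15 to 0.093, edgeR quasi-likelihood test, adjusted p = 0.829), and it was 0.21 once GC content and exonic length were corrected for (adjusted p = 0.387). Brd3, a paralog that also reads acetylated histones, ranged from 64.2 to 74.0 CPM with JQ1 and from 63.5 to 79.4 CPM with vehicle, a log2 difference of -0.082 (95% interval -0.24 to 0.072). Brdt, the BET protein known from male germ cells, ranged from 24.9 to 33.0 CPM with JQ1 and from 26.3 to 31.4 CPM with vehicle. Its log2 difference was 0.062 (95% interval -0.13 to 0.25), and -0.023 after the GC and length correction.

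Cdk9, the catalytic subunit of P-TEFb, showed the lowest unadjusted p of the members in this comparison. It ranged from 70.4 to 95.6 CPM with a median of 79.6 in JQ1-treated APP mice and from 84.6 to 103 CPM with a median of 96.3 in vehicle-treated APP mice. Of the 6 JQ1-treated mice, 4 were below every vehicle-treated mouse and all 6 were below the vehicle median, though the groups overlapped. The log2 difference was -0.25 ± 0.10 (SE), a 15.8% lower level (95% interval of the log2 difference -0.46 to -0.035). The edgeR adjusted p was 0.213 and the exact two-sided permutation p 0.0152, 1 of 36 such tests on members. Without the 4 libraries apart the log2 difference was -0.17 (adjusted p = 0.380). Those 4 libraries held Cdk9 at 66.5 to 97.3 CPM and the other 12 aged libraries at 77.7 to 106 CPM.

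The cyclins had values on the other side of the vehicle level. Ccnt1, which pairs with Cdk9 in most P-TEFb, ranged from 43.7 to 58.2 CPM (median 55.5) with JQ1 and from 40.9 to 52.5 CPM (median 47.1) with vehicle, and 4 of 6 mice on JQ1 exceeded the highest vehicle value. Its log2 difference was 0.19 ± 0.085 (SE, adjusted p = 0.259 by edgeR), and it was 0.074 after the GC and length correction (edgeR adjusted p = 0.732) and 0.15 without the 4 libraries apart (edgeR adjusted p = 0.543). The alternative cyclin Ccnt2 ranged from 120 to 141 CPM (median 129) with JQ1 and from 109 to 129 CPM (median 116) with vehicle. Its log2 difference was 0.12 ± 0.063 (SE, edgeR adjusted p = 0.348), and -0.084 after the correction for GC content and length (edgeR adjusted p = 0.691). Ccnt1 overlaps an antisense gene, and whether the counting used strand is not given in the sources used here.

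In the 7SK complex, Hexim1 ranged from 54.5 to 73.2 CPM with a median of 64.9 in JQ1-treated APP mice and from 60.4 to 81.5 CPM with a median of 71.4 in vehicle-treated APP mice. The log2 difference was -0.14 (95% interval -0.33 to 0.052, edgeR adjusted p = 0.450), so that a rise above 0.052 on the log2 scale lies outside the interval. Without the 4 libraries apart it was -0.19 (edgeR adjusted p = 0.417). Larp7 ranged from 14.4 to 18.1 CPM (median 15.7) with JQ1 and from 11.0 to 16.4 CPM (median 13.2) with vehicle. All 6 JQ1-treated mice lay above the vehicle median, and 1 above every vehicle-treated mouse. The log2 difference was 0.23 ± 0.10 (SE, edgeR adjusted p = 0.241), 0.22 without the 4 libraries apart and 0.13 after the correction for GC content and length (edgeR adjusted p = 0.773).

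Myc, the transcription factor that BET inhibitors lower in many tumour cells, was read at low depth, from 72 to 242 reads per aged sample. It ranged from 4.80 to 9.28 CPM with a median of 7.57 in JQ1-treated APP mice and from 7.17 to 10.7 CPM with a median of 8.41 in vehicle-treated APP mice. The JQ1-treated mice reached lower values, with 3 of 6 below every vehicle-treated mouse, but the groups overlapped. The log2 difference was -0.24 (95% interval -0.58 to 0.098, edgeR adjusted p = 0.459), and -0.11 without the 4 libraries apart (edgeR adjusted p = 0.813).

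The ratio of Hexim1 to P-TEFb, taken per mouse as Hexim1 CPM over the sum of Cdk9, Ccnt1 and Ccnt2, does not depend on the scaling factor of a library. It was 0.247 ± 0.0322 (SD, n = 6) in APP mice given JQ1, against 0.273 ± 0.0404 (SD, n = 6) in their vehicle controls, which the exact two-sided permutation test did not separate (p = 0.216). The log2 difference of this ratio was -0.22 without the 4 libraries apart (exact permutation p = 0.0794). The ratio of Brd2 to Brd3 was 3.10 ± 0.0579 (SD, n = 6) in the JQ1 group and 3.00 ± 0.164 (SD, n = 6) in the vehicle group (exact permutation p = 0.171, 8 such tests on ratios), and without the 4 libraries its log2 difference was 0.072 (exact permutation p = 0.0794).

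When the genotypes were compared under vehicle, APP against WT, 2.57% of genes and none of the 9 members passed the threshold, and 2 members passed an unadjusted p under 0.05, against 14.4% of all genes. This comparison asks how the genotype alone bears on the pathway, and it shares the vehicle-treated APP mice with the one above. The median of the members was 0.0062 and that of all genes 0.0093 on the log2 scale.

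Myc was the member with the largest difference by genotype. The 4 WT mice had 5.23, 7.04, 6.49 and 6.00 CPM, and the 6 vehicle-treated APP mice ranged from 7.17 to 10.7 CPM. The groups did not overlap, which held for 6.99% of all genes tested. Myc was 40.6% higher in APP mice, a log2 difference of 0.49 ± 0.18 (SE, 95% interval 0.11 to 0.88, edgeR adjusted p = 0.205). The exact two-sided permutation p was 0.00952, the smallest that 6 mice against 4 allow. Without the 4 libraries apart the log2 difference was 0.44 (edgeR adjusted p = 0.271). Astrocyte and microglia marker sums were also higher in every APP mouse with vehicle than in every WT mouse, as were endothelial and mural markers, and dividing-cell markers (4 of 4 found) at 3.96 to 10.1 CPM against 1.44 to 2.79 CPM. Within these sums Gfap alone ranged from 1262 to 5166 CPM in these APP mice and from 249 to 321 CPM in WT mice. Aqp4, Aldh1l1, Cx3cr1, Csf1r, Aif1, Top2a and Cdk1 also did not overlap between the groups. Slc1a3, P2ry12, Tmem119, Mki67, Ccnb1 and every endothelial and mural marker did overlap. The part of these markers in the Myc values was not tested.

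Larp7 went the other way, with 15.5, 17.9, 15.3 and 17.9 CPM in WT mice against 11.0 to 16.4 CPM in vehicle-treated APP mice. Of the 6 APP mice, 5 were below every WT mouse. The log2 difference was -0.30 ± 0.11 (SE, 95% interval -0.54 to -0.067, edgeR adjusted p = 0.205), and -0.29 without the 4 libraries apart. Brdt had a log2 difference of -0.18 (95% interval -0.39 to 0.033), and -0.073 without those libraries, of which WT replicate 1 held the highest Brdt value at 40.3 CPM. For Cdk9 the WT mice had 66.5, 97.5, 101 and 106 CPM, the lowest in WT replicate 1, and the log2 difference of 0.049 became -0.094 without the 4 libraries. The remaining members, Brd2, Brd3, Ccnt1, Ccnt2 and Hexim1, had log2 differences between -0.091 and 0.062.

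JQ1-treated APP mice were also compared with vehicle-treated WT mice, sharing samples with both comparisons above. No member passed the threshold, which 2.06% of genes did, and none had an unadjusted p under 0.05, against 14.1% of all genes. Cdk9 had a log2 difference of -0.20 (95% interval -0.44 to 0.038) and all 6 JQ1-treated mice lay below the WT median. WT replicate 1, at 66.5 CPM, lay below all 6 of them. Without the 4 libraries apart the Cdk9 difference was -0.26 (edgeR adjusted p = 0.128). Myc had a log2 difference of 0.25 (95% interval -0.13 to 0.63), and Larp7 one of -0.070 (95% interval -0.31 to 0.17).

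**Figure D2:**
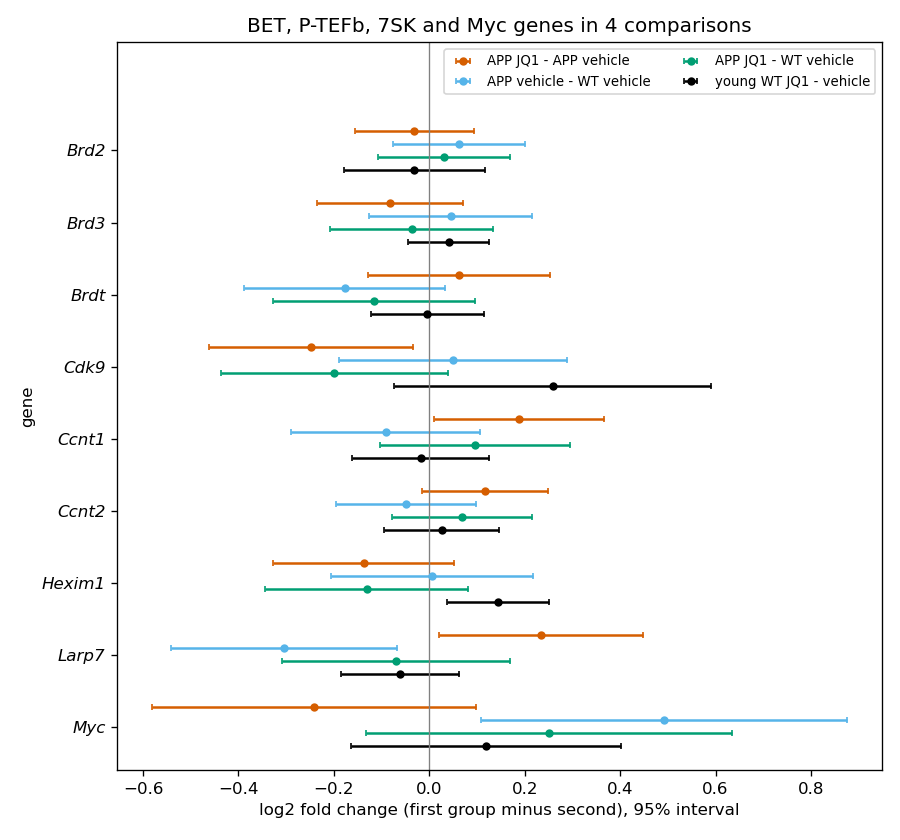
Log2 fold change of each member (points) with its 95% interval (bars) in the 4 comparisons, first group minus second; aged values come from edgeR on counts and young values from limma on log2(FPKM + 0.1). The intervals that leave out 0 are those of Cdk9, Ccnt1 and Larp7 for JQ1 in APP mice, Larp7 and Myc for APP against WT, and Hexim1 in young mice, and none of these passed adjustment over all genes.

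In young WT mice, 0.00543% of 18420 loci (1 locus, lower with JQ1) passed the threshold and no member did. At an unadjusted p under 0.05, 1 of 9 members passed, against 4.65% of all loci. That member was Hexim1, which ranged from 14.0 to 15.8 FPKM with a median of 15.6 in JQ1-treated mice and from 12.3 to 15.7 FPKM with a median of 13.9 in vehicle-treated mice. All 8 JQ1-treated mice lay above the vehicle median and 3 above every vehicle-treated mouse. On the log2(FPKM + 0.1) scale the difference was 0.14 ± 0.051 (SE, 95% interval 0.036 to 0.25), with an adjusted p of 0.981 by limma and an exact two-sided permutation p of 0.0124. Leaving out any 1 mouse kept the difference between 0.12 and 0.17.

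**Figure D3:**
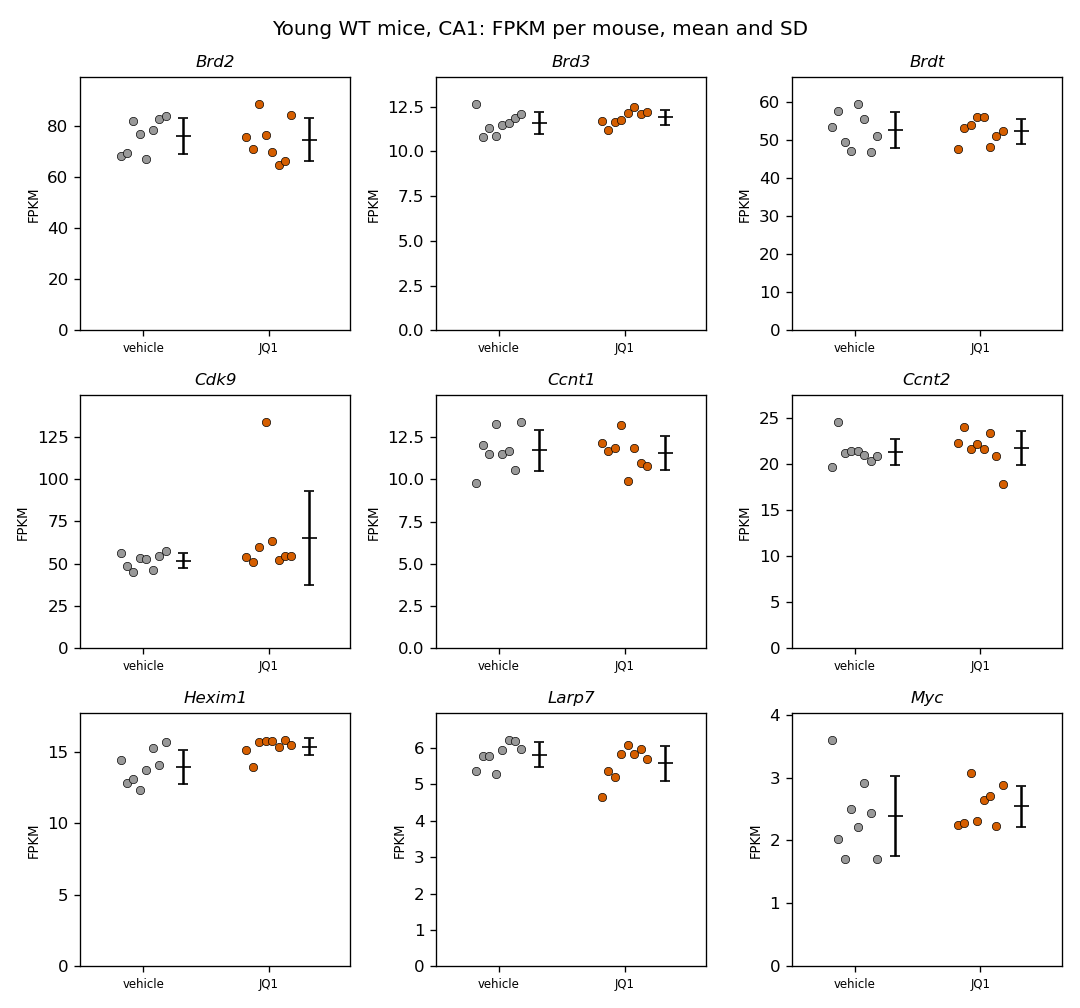
FPKM of each member in young WT CA1, 1 panel per gene with the axis from 0, points for single mice, and the mean with SD beside them, for vehicle (n = 8) and JQ1 (n = 8). Hexim1 lies between 14.0 and 15.8 with JQ1, and 1 JQ1-treated mouse stands at 134 in the Cdk9 panel, which plots the locus joined to 2 microRNA genes; the Brdt panel plots the higher of its 2 loci joined to Ephx4.

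The joined Cdk9 locus ranged from 51.0 to 134 FPKM with a median of 54.4 in JQ1-treated young mice and from 45.1 to 57.8 FPKM with a median of 53.2 in vehicle-treated mice. The highest value, in JQ1-treated replicate 4, lay far from the others, of which the next was 63.5 FPKM. The difference on the log2(FPKM + 0.1) scale was 0.26 (95% interval -0.074 to 0.59, limma adjusted p = 0.981), and 0.10 without that mouse. Myc ranged from 2.23 to 3.07 FPKM with JQ1 and from 1.70 to 3.59 FPKM with vehicle, a log2 difference of 0.12 (95% interval -0.16 to 0.40). The JQ1 values of Myc lay within the range of the vehicle values. Over all 16 young mice Brd2 ranged from 64.8 to 88.4 FPKM, Brd3 from 10.8 to 12.6, Ccnt1 from 9.79 to 13.4, Ccnt2 from 17.8 to 24.5 and Larp7 from 4.64 to 6.21, each with overlapping groups. The other members of the young comparison had log2 differences between -0.061 for Larp7 and 0.040 for Brd3.

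Side by side, the JQ1 differences of Hexim1 were -0.14 in APP mice and 0.14 in young WT mice on the log2 scale, and those of Myc -0.24 and 0.12. For Cdk9 they were -0.25 in APP mice and, at the joined locus of young mice, 0.26, or 0.10 without JQ1-treated replicate 4. Larp7 had 0.23 and -0.061 and Ccnt1 0.19 and -0.018. Brd3 had -0.082 and 0.040, and Brdt 0.062 and, at its joined locus, -0.0039. Brd2 and Ccnt2 had the same sign in both experiments, with -0.031 and -0.031 for Brd2 and 0.12 and 0.026 for Ccnt2. Whether the responses differ between the experiments was not tested, since the tables were made and normalised separately. The ratios of Hexim1 to P-TEFb in young mice were 0.163 ± 0.0295 (SD, n = 8) in the JQ1 group and 0.164 ± 0.0161 (SD, n = 8) in the vehicle group (exact permutation p = 0.893). These ratios are of FPKM, which are scaled to transcript length, and they include the joined Cdk9 locus. Their level thus cannot be set against the CPM ratios of the APP mice. Their log2 difference was -0.033, and 0.078 without JQ1-treated replicate 4 (exact permutation p = 0.219), so the near equality rests on that mouse.

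Of the other genes of the pathway, 114 were listed by role, and 113 were tested in aged mice and 109 in young mice. For JQ1 in APP mice 4 were called, all higher, which is 3.54% of those tested beside 1.08% of all genes. The super elongation complex (11 tested), the NELF and DSIF pausing factors (6), the PAF1 complex (6), the other elongation kinases and factors (11), the Mediator kinase module and BET partners (9), the textbook MYC targets (14) and the BET inhibitor response markers (8) had no call in this comparison. The median log2 differences of these lists lay between -0.15 and 0.15, beside -0.0010 for all genes. Aff4 and Ell of the super elongation complex are among the genes that the study itself called in these mice, Aff4 higher and Ell lower with JQ1. Here their log2 differences were 0.36 (edgeR adjusted p = 0.0815) and -0.28 (edgeR adjusted p = 0.116). Hexim2, the paralog of Hexim1, had a log2 difference of 0.14 (edgeR adjusted p = 0.628), and Mepce, which caps the 7SK RNA, one of -0.14 (edgeR adjusted p = 0.367), and 0.14 after the GC and length correction. Rn7sk, the 7SK RNA itself, is outside the naming rule and was chosen after its values were seen. It ranged from 0.949 to 63.7 CPM with JQ1, from 1.84 to 13.2 CPM in APP mice with vehicle and from 2.20 to 5.57 CPM in WT mice. Its spread was widest with JQ1, and the 3 groups overlapped. Whether reads on this gene measure the level of 7SK RNA in these libraries was not tested. Rn7sk had a log2 difference of 1.61 for JQ1 in APP mice (95% interval -0.19 to 3.41, edgeR adjusted p = 0.342), 2.53 for JQ1-treated APP against WT (95% interval 0.33 to 4.73, edgeR adjusted p = 0.271) and 0.92 for APP against WT (edgeR adjusted p = 0.722). These were 2.25, 3.12 and 0.87 without the 4 libraries.

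The 3 calls among 33 other bromodomain genes were Pbrm1, Phip and Brwd3. Pbrm1, a subunit of the PBAF remodelling complex, ranged from 60.0 to 81.0 CPM with JQ1 and from 44.4 to 57.3 CPM with vehicle, without overlap (2.03% of all genes), a log2 difference of 0.44 ± 0.082 (SE, edgeR adjusted p = 0.012). Phip and Brwd3, paralogs with a pair of bromodomains and WD repeats, differed by 0.58 (edgeR adjusted p = 0.020) and 0.62 (edgeR adjusted p = 0.042). The fourth call was Mga, a large MAX partner, among the 12 genes of the MYC/MAX/MXD network, with 74.1 to 92.8 CPM against 43.9 to 66.3 CPM and a log2 difference of 0.48 (edgeR adjusted p = 0.016). All 4 lost the call after the correction for GC content and length, with log2 differences of 0.26 for Pbrm1, 0.19 for Phip, 0.32 for Brwd3 and 0.27 for Mga, and without the 4 libraries apart, with 0.40, 0.48, 0.55 and 0.53 in that order (edgeR adjusted p between 0.051 and 0.150). Brwd3 also lost it when any of 11 of the 16 aged samples was left out, Phip with any of 5, and Mga without JQ1-treated replicate 2. The study itself also called these 4 genes higher with JQ1 in APP mice. It called Atad2b of the bromodomain list higher too, which was not called here.

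Between genotypes, 2 of the 113 genes were called (1.77%, beside 2.57% of all genes), both higher in vehicle-treated APP mice. Mlxipl, which encodes the glucose-responsive MLX partner ChREBP, ranged from 11.8 to 18.5 CPM in APP and from 5.08 to 7.48 CPM in WT mice, a log2 difference of 1.27 ± 0.16 (SE, edgeR adjusted p = 0.006). Cd180, a Toll-like receptor homologue of B cells and macrophages listed as a BET inhibitor response marker, ranged from 7.04 to 14.0 CPM in APP and from 0.996 to 2.02 CPM in WT mice, a log2 difference of 2.76 (edgeR adjusted p = 0.009). Both were also called in JQ1-treated APP against WT mice, with 1.30 and 2.72, a comparison that shares the WT mice. The Cd180 call was lost without WT replicate 1 (edgeR adjusted p = 0.052 in both), and against JQ1-treated APP mice without any 1 of the 4 WT mice, while the log2 difference stayed between 2.58 and 2.87 and between 2.54 and 2.95 with single samples left out. In young mice no gene of the lists was called by limma, while the study's own analysis of the young mice called Ep300, of the bromodomain list, higher with JQ1.

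Over the 16 aged mice, with values taken as log2 CPM deviations from the group mean, 2 of 36 pairs had a Pearson correlation beyond 0.6 in size, and 1 of 36 did over the 16 young mice. In the 12 aged mice without the 4 libraries apart 5 pairs did, and after the GC and length correction 4 did. Brd2 and Brd3 had r = 0.75 (Spearman 0.76) in aged mice, 0.85 in the 12 mice and 0.018 after the GC and length correction, against -0.12 in young mice. Hexim1 and Myc had r = -0.60 in aged mice, -0.34 in the 12 mice, -0.62 after the correction and 0.18 in young mice. Brd3 and Hexim1 had r = 0.72 in young mice, -0.0039 in the 16 aged mice and 0.42 in the 12. Brd3 and Myc had r = -0.25 in the 16 aged mice and -0.93 in the 12, and Brd2 and Myc -0.45 and -0.84. After the correction these pairs had -0.44 for Brd3 and -0.64 for Brd2. Ccnt2 and Myc had r = 0.34 in the 16 aged mice and 0.85 after the correction. Which pairs passed 0.6 thus changed with the libraries and the correction. These are descriptions of mice that share libraries, depth and base composition.

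**Figure D4:**
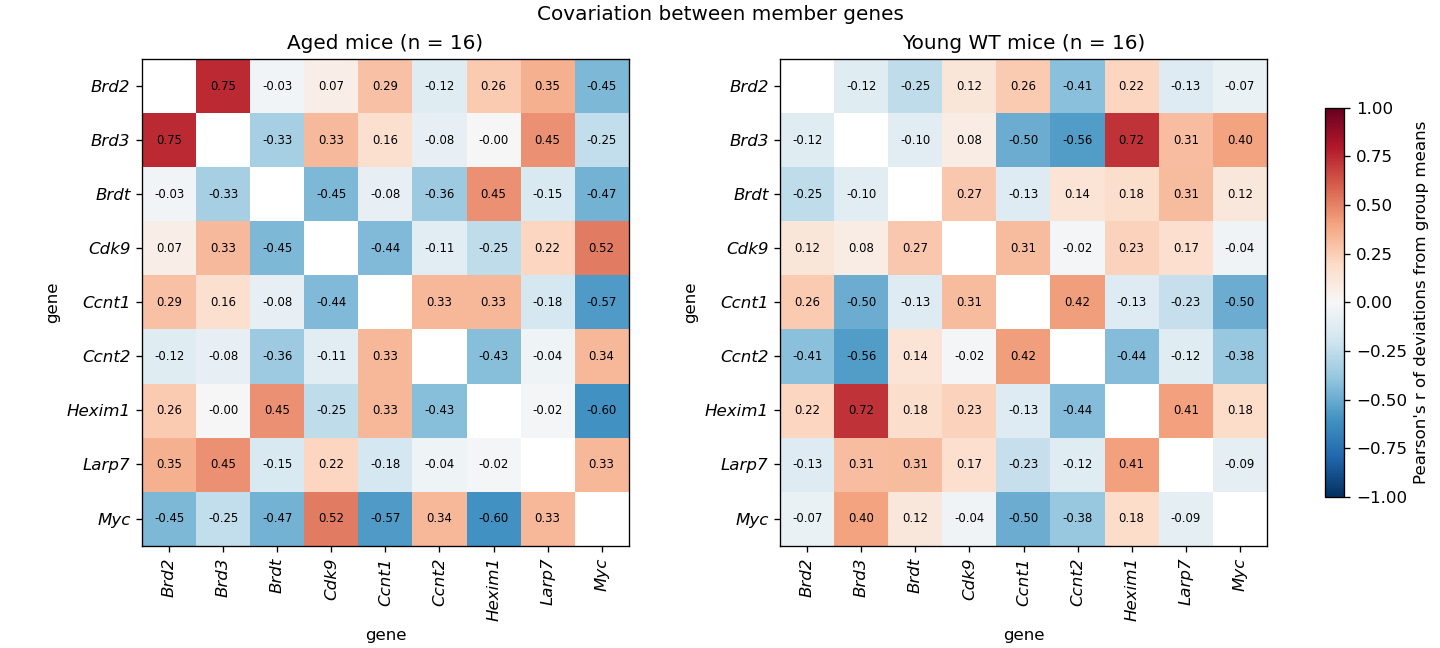
Pearson's r between members of log2 deviations from the group mean, for 16 aged mice (left, log2 CPM) and 16 young mice (right, log2 FPKM with 0.1 added), on a colour scale from -1 to 1. The strongest pair is Brd2 with Brd3 at 0.75 in the aged panel and Brd3 with Hexim1 at 0.72 in the young panel, and neither is as strong in the other panel.

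The genes most like Brd2 over the 16 aged mice were Maml1 (r = 0.87), Mfn2 (r = 0.83) and Klhl18 (r = 0.83), and after the GC and length correction these fell to 0.53, 0.56 and 0.43. For Hexim1 they were Chn1 (r = 0.89), Fam19a1 (r = 0.87) and Cbx8 (r = 0.86), and for Myc Cxcl14 (r = 0.93), Edem2 (r = 0.91) and Gstm1 (r = 0.91). They were the top 3 of 16962 genes for each member.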

How the data were processed

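The deposited counts of the aged samples are whole reads per gene, which the authors made with STAR and htseq on build mm10 after base calling with CASAVA 1.8.2. The deposited FPKM of the young samples were made by the authors with TopHat, Cufflinks and Cuffdiff. Tool names come from the submitters' processing notes and the methods, and the annotation and strand setting of the counting are not given in the sources used here. Among reads that were assigned to a gene, to none or ambiguously, those assigned to none made up 15.4% to 26.9% per aged sample. They stayed out of library sizes, and reads without a unique alignment are not part of this share. The count of vehicle-treated aged WT replicate 2 was not analysed here.

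Counts were scaled with TMM, filtered with filterByExpr (16962 genes kept, all 9 members among them) and tested in 1 fit of the 3 aged groups with edgeR 4.0.16 (quasi-likelihood, robust). FPKM were tested with limma 3.58.1 (trend, robust) on log2(FPKM + 0.1) for loci with at least 0.5 FPKM in at least 8 of 16 samples. P-values were adjusted by Benjamini-Hochberg over all genes or loci tested, with a threshold of 0.05. Single members and ratios were also tested with exact two-sided permutation tests in scipy 1.17.1. Labels do not say that samples are separate litters or days, so p-values measure the spread between these samples. Depth of the young samples is unknown: in 3680 low loci, 9.86% of ratios to the lowest value were whole within 0.05, where an even spread gives 10%.

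Members and gene lists were chosen with earlier results of these data known. Named besides the members are the genes of each list past the threshold, at most the 3 with the smallest adjusted p per list and comparison, with Hexim2 and Mepce, and the 3 genes most like Brd2, Hexim1 and Myc. Rn7sk is outside this rule, as are Aff4, Ell, Atad2b and Ep300, which are named because the study called them. GENCODE M21 supplied coordinates, GC content and exonic length, the latter pair for 98.9% of tested genes. Alternatives were DESeq2 1.42.0, other size factors, filters, pseudocounts, fits of 2 groups, the replicate block, the GC and length correction and leaving out single samples. Leaving out the 4 libraries apart was chosen after seeing the data. R 4.3.3 and Python 3.11.15 were used, and the fits were tested on simulated data.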

Additional observations from a re-analysis of the deposited data

Results flagged for a closer look

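Over 47 sets of values of 1 member in 1 group, 3 held a value far from the rest by Dixon's test at the 5% level, which chance alone gives in about 5% of sets. The Cdk9 locus stood at 133.6 FPKM in 1 JQ1-treated young mouse, the value described above. Ccnt2 stood at 24.5 FPKM in 1 vehicle-treated young mouse, above the other 7. Hexim1 stood at 14.0 FPKM in 1 JQ1-treated young mouse, below the other 7 JQ1-treated mice and still above the vehicle median.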

How the results depend on the processing

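None of the 9 members passed the threshold in 313 values from other settings or 576 from leaving out single samples, where the smallest adjusted p (edgeR, DESeq2 or limma) were 0.0984 and 0.0706. Small differences changed sign. For JQ1 in APP mice the GC and length correction gave 0.21 for Brd2, -0.023 for Brdt, -0.084 for Ccnt2 and 0.14 for Mepce, and with the replicate block added 0.21, -0.025, -0.083 and 0.14. For APP against WT the correction gave -0.065 for Brd2, 0.074 for Ccnt2, -0.0086 for Hexim1 and -0.15 for Mepce, and with the block -0.055 for Brd2, 0.087 for Ccnt2, -0.11 for Mepce and -0.20 for Rn7sk, which was -0.12 with the block alone. With DESeq2, RLE size factors and no filter, Hexim1 was -0.0089, -0.0089 and -0.010 and Mepce -0.0086, -0.0085 and -0.0090. Without the 4 libraries Hexim1 was -0.011, Mepce -0.042 and Cdk9 -0.094. For JQ1-treated APP against WT, Ccnt2 was -0.010 with the correction and Mepce 0.028 with block and correction. The cause was not tested.

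The replicate numbers did not pair the samples, since same-numbered deviations correlated between -0.12 and 0.34 in APP mice (3 of 6 best with their own number) and between -0.070 and 0.10 in young mice. With the replicate block 87 genes were called for JQ1 in APP mice (64 higher, 23 lower, against 105 and 79 without it), 35 for APP against WT and 21 for JQ1-treated APP against WT. With the GC and length correction added these were 34, 51 and 57, and in young mice the block left 0 loci by limma (1309 at an unadjusted p under 0.05). Under the block the Hexim1 to P-TEFb ratio in APP mice differed by -0.14 on the log2 scale, with an exact sign-flip p of 0.0312, the smallest for 6 pairs. DESeq2 called 749, 798 and 800 genes in the 3 aged comparisons, against 184, 436 and 349 by edgeR. The correction alone left 42 for JQ1 in APP mice (35 higher, 7 lower). Fits of only 2 groups gave 679 for APP against WT and 227 for JQ1-treated APP against WT. Without the 4 libraries 76 were called for JQ1 in APP mice and 667 for JQ1-treated APP against WT. No filter on FPKM gave 0 loci by limma (1435 at an unadjusted p under 0.05).

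Leaving out 1 sample gave 65 (without JQ1-treated APP replicate 2) to 446 (without WT replicate 1) genes for JQ1 in APP mice, 154 (without WT replicate 1) to 601 (without JQ1-treated APP replicate 4) for APP against WT, 11 (without WT replicate 5) to 651 (without JQ1-treated APP replicate 4) for JQ1-treated APP against WT, and 0 to 2 loci in young mice. For APP against WT it gave -0.022 to 0.080 for Brd3, -0.092 to 0.12 for Cdk9, -0.039 to 0.050 for Hexim1, -0.059 to 0.049 for Mepce, -0.039 to 0.086 for the Hexim1 to P-TEFb ratio and -0.022 to 0.072 for the Brd2 to Brd3 ratio. The latter gave 0.032 to 0.071 for JQ1 in APP mice (exact permutation p down to 0.0346) and 0.026 to 0.12 for JQ1-treated APP against WT (exact permutation p down to 0.0238), where Brd3 gave -0.10 to 0.0021. In young mice Brdt gave -0.027 to 0.022, its other locus -0.049 to 0.022, Ccnt1 -0.054 to 0.013 and the Hexim1 to P-TEFb ratio -0.066 to 0.078. Rn7sk gave -0.22 to 0.13 in young mice. The part of counting noise in the Myc values, at 72 to 242 reads per aged sample, was not tested.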
